A study of Mus musculus with 3 samples.

Results

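The genes that carry zinc, copper and iron across membranes, bind these metals or sense them were followed in EpH4-PR cells on 3 Agilent two-colour arrays that cover the mouse genome. Members were the probes whose gene name in the array files was a zinc transporter of the Slc30a or Slc39a family, a metallothionein (Mt1, Mt2, Mt3, Mt4) or their regulator Mtf1, or 1 of the copper, iron and haem genes Slc31a1, Slc31a2, Atp7a, Atp7b, Slc11a1, Slc11a2, Slc40a1, Tfrc, Trf, Fth1, Ftl1, Hmox1, Hmox2, Hamp, Hfe, Heph, Cp, Aco1 and Ireb2. The rule gave 68 probes of 47 genes among 41174 probes, and no measured value entered it. EpH4-PR is the EpH4 mouse mammary epithelial line after stable transfection with PR-A and selection of clones and growth in DMEM with serum to below confluence. EpH4-PR RNA was in Cy5 and a commercial mouse standard RNA, called the reference RNA here, was in Cy3 on all 3 arrays, with no dye swap, so a dye effect and a difference between the RNAs cannot be told apart. EpH4-EV arrays were not analysed here, so no value below measures an effect of PR.

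Zinc enters the cytosol through Slc39a (ZIP) proteins and leaves it, for the medium or for vesicles, through Slc30a (ZnT) proteins, while metallothioneins bind zinc and copper and are switched on by the zinc-sensing factor Mtf1. Iron on transferrin is taken up by the transferrin receptor Tfrc, reaches the cytosol through Slc11a2, is stored in ferritin (Fth1 and Ftl1) and leaves through ferroportin (Slc40a1). The iron regulatory proteins Aco1 and Ireb2 bind the mRNAs of Tfrc and of ferritin when iron is low. In the mammary gland zinc transporters also load zinc into milk.

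Ratios are on the log2 scale, EpH4-PR RNA over reference RNA, after normexp background correction and loess within each array. Calls needed both a limma p against 0, adjusted over all probes (Benjamini-Hochberg), under 0.05 and a ratio at least 1 log2 unit from 0. Nothing says that the 3 numbered arrays came from separate cultures, so the p-values measure only the spread between these samples, which may be technical. Loess draws the ratios of bright probes down on these arrays, and its removal has a large effect: with each array centred on its median instead, the median member moved up by 0.56, with a range from -0.25 to 1.64, and 31 of 68 members changed sign. Such changes are given beside the genes described. Epithelial marker probes were called higher in 9 of 10 cases, the exception being Krt19 at -2.62. Of 15 mesenchymal marker probes 8 were called lower, Vim lowest at -6.51. Over all probes 2.26% were called higher and 3.83% lower. Under median centring 9 epithelial probes were called higher and 6 mesenchymal probes lower, against 17.1% and 1.72% of all probes. The Fn1 probe called lower after loess changed sign, from -1.21 to 0.13. The 2 Pgr probes were each well above background in EpH4-PR RNA on 1 of 3 arrays. Where these probes lie in Pgr could not be checked, so they do not show whether the transfected PR-A transcript was present. Fewer cells of a type in the reference RNA and less RNA per cell cannot be told apart in any ratio.

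Most metal handling genes lay within 1 log2 unit of the reference RNA after loess. Median centring changed the sign of 31 of the 68 members, but among the called probes only that of Fth1. After loess, of the 68 probes, 6 were called lower (Mt2, Mt1, Slc11a1, Atp7a, Fth1 and Slc30a1) and 1 was called higher (Aco1). Over all probes tested, 3.83% were called lower and 2.26% higher, against 8.82% and 1.47% of the members. The Fth1 spot was saturated in EpH4-PR RNA on all 3 arrays, which leaves 5 called lower with a measured ratio. With the limit on the ratio left aside, 24 members had an adjusted p under 0.05 below 0 and 14 above it, and the shares over all probes were 24.6% and 25.7%. The median ratio was -0.08 over the members and -0.01 over all probes. Under median centring the members' median was 0.32, 14 were called higher (17.1% over all probes) and 1 was called lower (1.72% over all probes). The scanner software's own log ratio called 3 members higher and 7 lower (8.78% and 9.44% over all probes), and normexp with offset 0 called 3 higher and 6 lower (7.59% and 9.48%). Under both Slc39a4 was called lower and Fth1 was not, and the scanner's log ratio also called Slc39a12 lower. Aco1 and a probe of Slc11a2 (A_52_P196476) were called higher under both. Added to these were a probe of Slc30a5 (A_52_P65165) with offset 0 and of Slc39a9 (A_51_P188023) with the scanner's log ratio. Apart from Aco1, the probes called higher were dim in reference RNA.

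**Figure D1:**
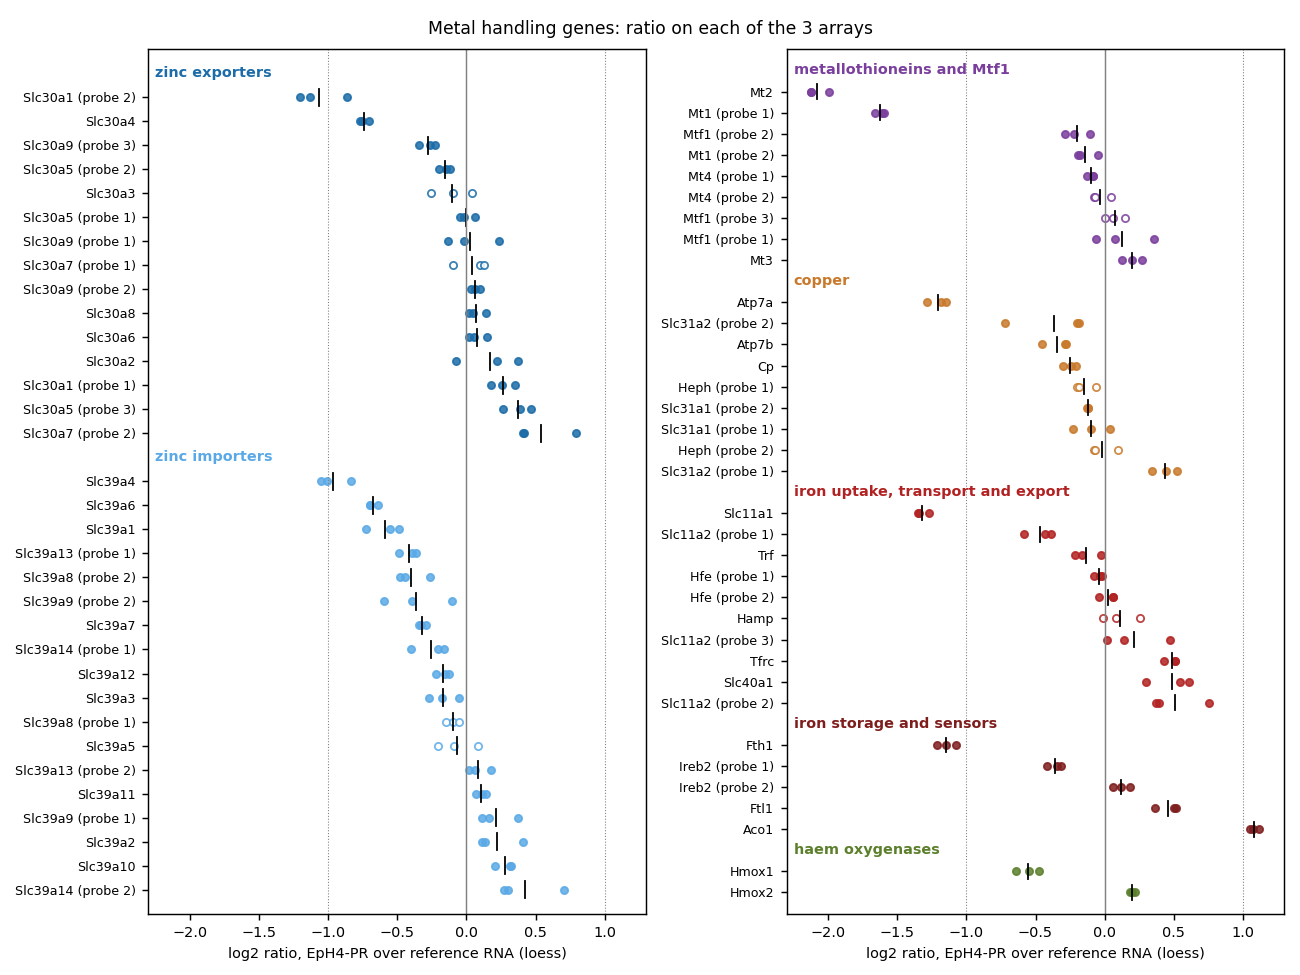
Log2 ratio to reference RNA in EpH4-PR cells (loess) for each of the 68 probes, grouped by role. Points are the 3 arrays, black ticks their mean, open points mark probes not well above background on all arrays in either channel, and dotted lines the limit of 1 log2 unit. Mt2 and Mt1 lie lowest and Aco1 highest; under median centring 31 of the 68 means change sign.

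Signal set what could be measured. In at least 1 channel 59 of 68 members were well above background on all 3 arrays, and 57 were so in both. That flag compares a spot with its background, which lies below the negative control spots, whose median was 91.8 to 121 in Cy3. Only 34 members were brighter than the 95th percentile of the negative controls in both channels on all 3 arrays, while 32.8% of all probes were. All 7 called members were among these 34, whose median ratio was -0.30, against -0.10 for all probes that bright. Of the 34, 17.6% were called lower and 2.94% higher, against 10.6% and 4.31% of all probes that bright. With median centring these medians turned to 0.70 and 0.88. The 4 probes of Heph (2 probes), Mtf1 and Slc30a7 that were well above background in neither channel on any array had ratios between -0.15 and 0.07. They set no level for these genes.

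**Figure D2:**
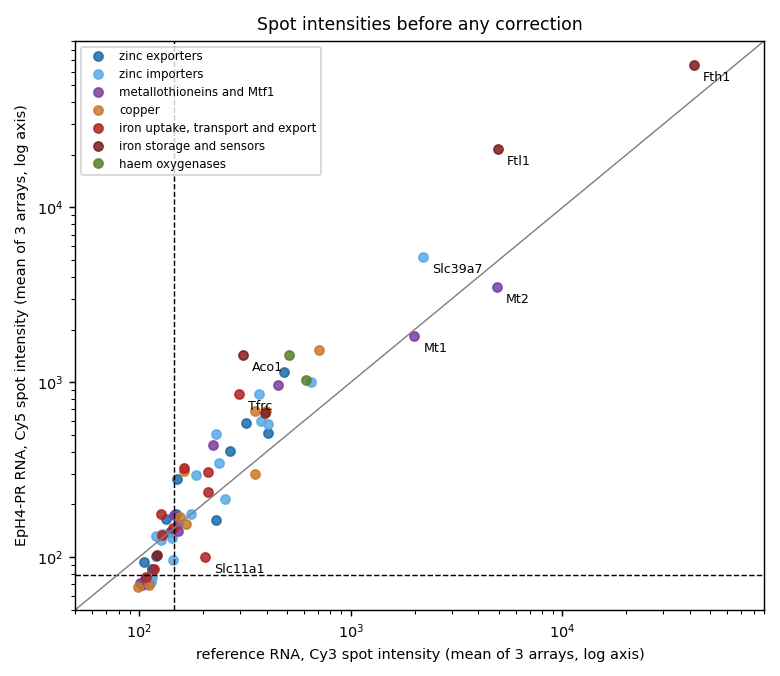
Uncorrected spot intensity of each member in EpH4-PR RNA (Cy5) against reference RNA (Cy3), as the mean of 3 arrays on log axes; dashed lines are the mean 95th percentiles of negative control spots and the grey line is equality. Fth1 sits at the top of the Cy5 scale, where its spot was saturated, while 34 of the 68 probes exceeded the negative control limit in both channels on every array.

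The metallothioneins Mt1 and Mt2, the widespread isoforms that most cells make, had the lowest ratios of the 47 genes after loess, while with median centring Slc11a1 was lowest. They are neighbours on chromosome 8, and the 250 bases before each RefSeq start are shown because both genes were called lower, with Slc30a1, the other textbook target of Mtf1, beside them. Capitals mark matches to the core of the metal response element that Mtf1 binds, searched as TGCACNC and TGCGCNC on both strands (RefSeq, GRCm38.p6):
Mt1, chr8:94178839-94179088, plus strand: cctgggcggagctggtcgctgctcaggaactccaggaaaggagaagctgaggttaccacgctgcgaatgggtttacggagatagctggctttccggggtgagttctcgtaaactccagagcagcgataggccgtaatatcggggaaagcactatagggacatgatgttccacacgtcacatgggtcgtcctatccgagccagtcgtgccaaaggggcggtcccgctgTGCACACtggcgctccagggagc
Mt2, chr8:94172368-94172617, plus strand: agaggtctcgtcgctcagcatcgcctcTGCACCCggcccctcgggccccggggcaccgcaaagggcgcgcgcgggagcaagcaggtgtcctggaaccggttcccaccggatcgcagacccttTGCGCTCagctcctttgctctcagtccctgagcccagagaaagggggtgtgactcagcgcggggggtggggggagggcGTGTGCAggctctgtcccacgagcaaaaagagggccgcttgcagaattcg
Slc30a1, chr1:191906531-191906780, plus strand: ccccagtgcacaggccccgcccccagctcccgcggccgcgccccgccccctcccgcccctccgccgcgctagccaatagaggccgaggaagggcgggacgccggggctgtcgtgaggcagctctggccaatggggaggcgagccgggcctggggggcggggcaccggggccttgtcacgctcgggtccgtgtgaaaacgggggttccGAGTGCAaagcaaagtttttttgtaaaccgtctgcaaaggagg

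Mt2 held 3 matches, which begin 223, 128 and 50 bases before the start, Mt1 held 1 at 23 bases and Slc30a1 held 1 at 43 bases. A further 2 matches lay in the 50 bases after the listed Mt1 start, 1 after that of Mt2 and 1 after that of Slc30a1. Promoter windows were found for 38 of the 47 member genes, and 17 of their 48 windows, or 35.4%, held a match in the 250 bases before the start, against 21.4% of all 32851 windows. For Tfrc the 2 matches overlap on opposite strands. The listed starts were not checked against where transcription begins, so the numbers of matches do not rank the genes. A match is a description of the letters and not a site.

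Mt2 had the lowest loess ratio of all 68 probes, -2.12, -2.12 and -1.99 on replicates 1, 2 and 3. The spot read 3546, 3286 and 3721 in EpH4-PR RNA and 5016, 4805 and 4916 in reference RNA, so the reference channel was the brighter one on every array before any normalization. Its mean was -2.08 ± 0.07 (SD, n = 3, adjusted p = 2.08e-05), or 4.23-fold lower. Mt1 (A_51_P294979) followed at -1.66, -1.60 and -1.61 (mean -1.62 ± 0.03, SD, n = 3, adjusted p = 2.41e-05), or 3.08-fold lower, and again the reference channel was brighter on all 3 arrays. Under median centring both stayed below 0, at -0.63 for Mt2 and -0.24 for Mt1, but inside the limit of 1 log2 unit. The second Mt1 probe (A_52_P423810) did not share this, at -0.05, -0.18 and -0.19 (mean -0.14 ± 0.08, SD, n = 3, adjusted p = 0.0718). It was a dim spot of 141 to 161 in Cy5, not above the negative controls on all arrays, and carries a cDNA accession that was not matched to a gene here. Its ratio was 0.22 under median centring.

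The tissue-restricted metallothioneins did not follow. Mt3, known from brain, had a ratio of 0.20 ± 0.07 (SD, n = 3, adjusted p = 0.0239). The brighter Mt4 probe, a gene known from stratified epithelia, gave -0.10 ± 0.02 (SD, n = 3, adjusted p = 0.1), and the dimmer was not well above background in EpH4-PR RNA. Under median centring Mt3 (1.09) and the brighter Mt4 probe (1.07) were called higher. The 3 probes of Mtf1 lay at -0.20, 0.07 and 0.12, and only the first passed an adjusted p of 0.05 (0.0279). Its arrays read -0.10, -0.28 and -0.22, those of the second 0.00, 0.06 and 0.15, and those of the third 0.36, 0.08 and -0.06. None of the 3 was brighter than the negative controls in both channels on all arrays, and 2 changed sign under median centring.

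Zinc exporters held 15 probes of 9 genes. Of these probes 3 had an adjusted p under 0.05 above 0, 4 below 0 and 8 did not pass. Over all probes 25.7% passed above 0 and 24.6% below. The exporters' median ratio was 0.04, and 0.24 under median centring. The probes of Slc30a1, the plasma membrane exporter, opposed each other. The probe with an unmatched cDNA accession (A_51_P300572) read -1.13, -1.20 and -0.87, or -1.07 ± 0.18 on average (SD, n = 3, adjusted p = 0.000317). The RefSeq probe (A_51_P250378) read 0.35, 0.26 and 0.18, or 0.26 ± 0.09 on average (SD, n = 3, adjusted p = 0.0114). Their arrays did not overlap, and the signs were the same under median centring (-0.45 and 0.56). In reference RNA the RefSeq probe exceeded the negative control limit on 1 of 3 arrays, and the other probe on all 3. The probes disagreed, so no direction can be given for this gene. The lower call was lost without replicate 2 and without background correction (-0.91), in both cases by the limit on the ratio. Slc30a4, which loads zinc into milk and is mutated in lethal milk mice, had a ratio of -0.74 ± 0.03 (SD, n = 3, adjusted p = 0.000156) with all arrays between -0.77 and -0.70, but 0.31 under median centring. Slc30a7, a transporter of the Golgi, had a ratio of 0.54 ± 0.22 (SD, n = 3, adjusted p = 0.00653) and was called higher under median centring (1.15), and its second probe was at background. Slc30a5, another transporter of the secretory pathway, had 3 probes. The one with the strongest spots lay at -0.00 ± 0.05 (SD, n = 3, adjusted p = 0.967). Under median centring it was called higher (1.20). The dimmest Slc30a5 probe was called higher with normexp offset 0. Slc30a2, the exporter of milk vesicles, was 0.17 ± 0.23, Slc30a6 was 0.07 ± 0.07, and Slc30a8, of pancreatic beta cells, was 0.07 ± 0.07 (SD, n = 3), none of them past the test. Under median centring Slc30a8 was -0.13. Slc30a3, of synaptic vesicles, was not well above background in EpH4-PR RNA on any array.

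Zinc importers held 18 probes of 14 genes with a median of -0.17, and 9 had an adjusted p under 0.05 below 0, 3 above 0 and 6 did not pass, against 24.6% below and 25.7% above over all probes. With median centring the importers' median was 0.41, 13 of 18 probes lay above 0 and 3 were called higher (17.1% over all probes). After loess none reached the limit of 1 log2 unit with its mean. Slc39a4, the importer of the intestine that is lost in acrodermatitis enteropathica, came closest, with -1.01, -1.05 and -0.83 on replicates 1, 2 and 3. Its mean was -0.96 ± 0.12 (SD, n = 3, adjusted p = 0.000187), and it stayed below 0 under median centring (-0.22). It was called lower with normexp offset 0 (-1.29) and with the scanner's log ratio (-1.23). Slc39a6, an importer of the plasma membrane, was -0.68 ± 0.04 (SD, n = 3, adjusted p = 0.000207) and Slc39a1, a ubiquitous importer, read -0.55, -0.73 and -0.49 (mean -0.59 ± 0.12, SD, n = 3, adjusted p = 0.00115). Under median centring both changed sign, to 0.54 and 0.49. Slc39a7, which releases zinc from the endoplasmic reticulum, was -0.32 ± 0.03 (SD, n = 3, adjusted p = 0.00263) and 1.11 under median centring. Slc39a10 was the importer above 0 with the smallest adjusted p, at 0.28 ± 0.06 (SD, n = 3, adjusted p = 0.0066), and it was 1.21 under median centring. The ratios of Slc39a11 (0.11), Slc39a2 (0.22) and Slc39a3 (-0.17) did not pass the test. Under median centring Slc39a11 was called higher (1.23) and Slc39a3 was 0.02. Slc39a5 was not well above background in EpH4-PR RNA on any array. Slc39a12, known from brain, was not well above background in EpH4-PR RNA on any array and was above it in reference RNA on all 3, but there on 0 arrays brighter than the 95th percentile of the negative controls, so no fold is given.

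The copper genes held 9 probes of 6 genes with a median of -0.15. Median centring gave a median of 0.32, with 6 of 9 above 0 and 2 called higher (17.1% over all probes). Atp7a, the copper pump of the secretory pathway that is mutated in Menkes disease, read -1.18, -1.15 and -1.29 (mean -1.21 ± 0.07, SD, n = 3, adjusted p = 5.97e-05), or 2.31-fold lower. Its uncorrected spot was dimmer in EpH4-PR RNA on all 3 arrays (304, 308 and 279 against 366, 359.9 and 336). Negative control spots were dimmer in Cy5 too, with medians of 57.3 to 74.1 against 91.8 to 121 in Cy3. The uncorrected spots alone therefore give no direction for Atp7a. Under median centring the Atp7a ratio was -0.28. Its relative Atp7b, the pump mutated in Wilson disease, lay at -0.34 ± 0.10 (SD, n = 3, adjusted p = 0.00544) and above 0 under median centring (0.76). The 2 probes of the copper importer Slc31a1 were alike, averaging -0.10 from 0.04, -0.10 and -0.23 and -0.12 from -0.12, -0.12 and -0.13, and neither passed the test (adjusted p = 0.26 and 0.0594). Under median centring both were above 0, at 0.32 and 0.96. Slc31a2, its relative, had a probe at 0.44 ± 0.09 (SD, n = 3, adjusted p = 0.00188) that was called higher under median centring (1.13). Its dimmer probe was at -0.37 ± 0.31 (SD, n = 3, adjusted p = 0.0527), which was 0.04 under median centring. Ceruloplasmin (Cp), the secreted copper oxidase that acts on iron, was -0.25 ± 0.05 (SD, n = 3, adjusted p = 0.00794) and 1.03 under median centring.

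Iron uptake, transport and export held 10 probes of 7 genes with a median of 0.07 and 0.28 under median centring. Tfrc, the transferrin receptor, was above the reference RNA on all 3 arrays, at 0.43, 0.51 and 0.51 (mean 0.48 ± 0.05, SD, n = 3, adjusted p = 0.000725) or 1.40-fold. Ferroportin (Slc40a1), the iron exporter, had nearly the same mean from 0.61, 0.54 and 0.30, 0.48 ± 0.17 (SD, n = 3, adjusted p = 0.00449). Both stayed above 0 under median centring and were then called higher, at 1.57 and 1.19. The iron importer Slc11a2 gave no direction: 2 of its 3 probes lay above 0, at 0.51 (0.37, 0.39 and 0.75, adjusted p = 0.0077) and 0.21 (0.14, 0.47 and 0.01, adjusted p = 0.131), and the brightest lay below, at -0.47 (-0.43, -0.39 and -0.59, adjusted p = 0.00186). Only the last changed sign under median centring (0.24). In reference RNA the probes above 0 exceeded the negative control limit on 0 and 1 of 3 arrays, and the brightest on all 3. The first of them was called higher with normexp offset 0 and with the scanner's log ratio. Transferrin (Trf) read -0.03, -0.21 and -0.17, a mean of -0.14 ± 0.10 that did not pass (SD, n = 3, adjusted p = 0.0902) and was 0.65 under median centring. The 2 probes of Hfe, a partner of Tfrc, lay at -0.04 and 0.02, neither passed, and both changed sign under median centring (0.23 and -0.17). Hepcidin (Hamp), the hormone of the liver that acts on ferroportin, was well above background in EpH4-PR RNA on 1 of 3 arrays and in reference RNA on none.

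Slc11a1, the divalent metal transporter of macrophage phagosomes, was the member still called lower under median centring. It read -1.27, -1.34 and -1.35 (mean -1.32 ± 0.04, SD, n = 3, adjusted p = 3.7e-05) or 2.50-fold lower, and -1.01 under median centring. The size depended on the background correction, at -2.22 with normexp offset 0 and -2.44 with the scanner's log ratio. The EpH4-PR spot, at 108, 106 and 86.1, was not far above the negative controls, whose 95th percentile was 85.9, 87.4 and 62.9. Macrophage markers moved the same way: 7 of 14 probes of 7 genes were called lower and none higher. Over all probes 3.83% were called lower and 2.26% higher. Under median centring 6 macrophage probes were called lower and 0 higher, against 1.72% and 17.1% of all probes. Their summed uncorrected spot intensity was 1427 to 1728 in EpH4-PR RNA and 3983 to 4478 in reference RNA. These sums include a floor that was higher in Cy3, where negative control medians were 91.8 to 121 against 57.3 to 74.1 in Cy5. The lowest Ptprc probe (-4.50) was not well above background in EpH4-PR RNA on any array. The part of the macrophage markers in the Slc11a1 ratio was not tested.

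Iron storage and sensing held 5 probes of 4 genes with a median of 0.12 and 0.73 under median centring, the highest ratio of all members among them. Aco1, the iron regulatory protein that is also the cytosolic aconitase, read 1.08, 1.12 and 1.05 (mean 1.08 ± 0.03, SD, n = 3, adjusted p = 5.59e-05) or 2.11-fold higher. The spot was 1436, 1432 and 1416 in EpH4-PR RNA and 319, 314.5 and 294 in reference RNA, and under median centring the ratio was 2.25. Its partner Ireb2 had probes on either side of 0: the brighter read -0.32, -0.34 and -0.42 (mean -0.36 ± 0.05, SD, n = 3, adjusted p = 0.00229), and the dimmer read 0.06, 0.18 and 0.12 (mean 0.12 ± 0.06, SD, n = 3, adjusted p = 0.0863). The brighter changed sign under median centring (0.73).

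Ferritin heavy chain (Fth1), the ferroxidase subunit, could not be measured. Its EpH4-PR spot was saturated on all 3 arrays while the reference spot was not, so the ratios of -1.21, -1.08 and -1.15 (mean -1.14, adjusted p = 6.39e-05) are lower limits, and the sign of the true ratio is not known. Under median centring the limit was 0.50. Ferritin light chain (Ftl1), not saturated, read 0.36, 0.52 and 0.50 (mean 0.46 ± 0.09, SD, n = 3, adjusted p = 0.0015), and 1.98 under median centring. Haem oxygenases free iron from haem. The inducible Hmox1 read -0.64, -0.47 and -0.54 (mean -0.55 ± 0.08, SD, n = 3, adjusted p = 0.000758), and the constitutive Hmox2 read 0.22, 0.18 and 0.20 (mean 0.20 ± 0.02, SD, n = 3, adjusted p = 0.0133). The arrays of these genes did not overlap. Under median centring Hmox1 was 0.67 and Hmox2 was 1.43, so Hmox1 kept the lower ratio while its sign changed.

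**Figure D3:**
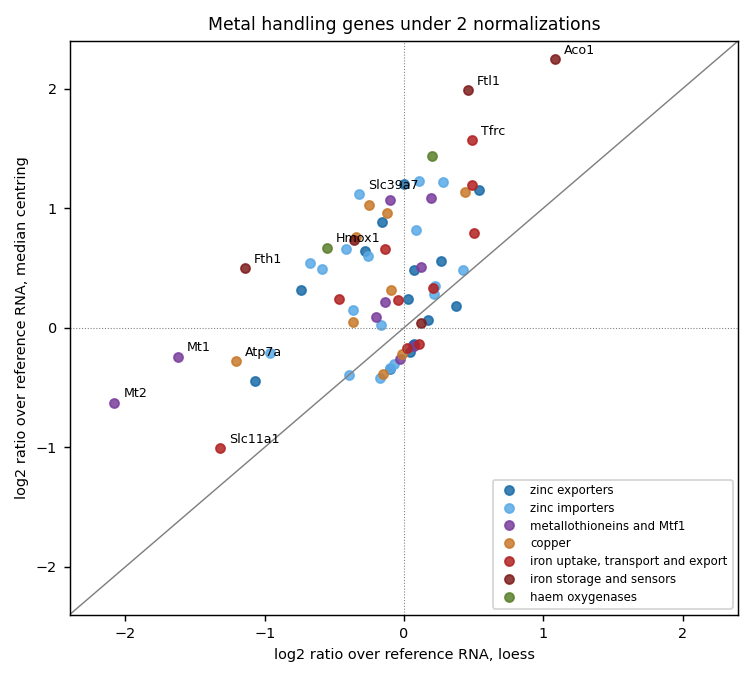
Mean log2 ratio of each member over reference RNA after loess (horizontal axis) and after median centring of each array (vertical axis); the grey line is equality. Most members lie above the line, 31 of 68 change sign, and Mt2, Mt1, Atp7a and Slc11a1 are below 0 and Aco1 and Tfrc above 0 on both axes.

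Several probes were available for 17 of the 47 genes, and they often differed by more than the spread between arrays. In 11 genes the probes lay on opposite sides of 0, and in 5 of these (Slc30a1, Slc11a2, Slc39a14, Slc39a9 and Slc30a5) probes on each side had an adjusted p under 0.05. In each of these 5 genes the passing probe above 0 was dim in reference RNA. There it did not exceed the 95th percentile of the negative controls on every array. The gap exceeded 0.5 log2 units in 8 genes and was widest for Mt1, at 1.48, while the widest SD of a member probe was 0.31. The probes of Slc39a14, an importer that also carries iron and manganese, were at -0.26 and 0.43, and at 0.60 and 0.48 under median centring. Its relative Slc39a8 was at -0.40 under both, and its second probe was not well above background in EpH4-PR RNA on any array. Of the 68 member probes 53 had a RefSeq accession that matched, each to the same symbol, and 15 did not match.

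**Figure D4:**
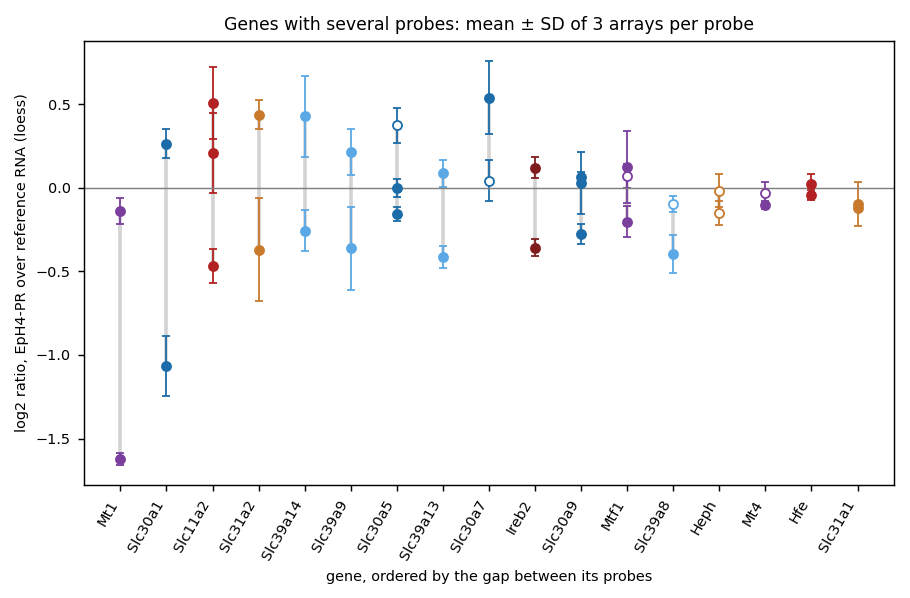
Mean log2 ratio over reference RNA (loess) with SD of 3 arrays for each probe of the 17 genes with several probes, ordered by the gap between probes; open points lacked a signal well above background in a channel on some array. Mt1 and Slc30a1 show gaps of 1.48 and 1.33, and those of Slc31a1 lie 0.03 apart.

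Genes that work beside the members were taken from a list of 51 copper, iron and haem genes, of which 47 had 79 probes. Of these probes 5 were called lower (6.33%) and 1 higher (1.27%) against 3.83% and 2.26% of all probes, and their median was 0.01. The lowest was biliverdin reductase B (Blvrb), at -2.52 ± 0.03 (SD, n = 3) and -1.46 under median centring. The other probes called lower were those of the ferrireductase-like Steap1 (-1.16), the last enzyme of haem synthesis Fech (-1.13), Urod of the same pathway (-1.01) and 1 of 4 probes of Nfe2l2 (-1.13), the factor that drives Hmox1 and ferritin, whose other probes lay at -0.84, -0.71 and -0.08. The second probes of Steap1 (-0.67) and Fech (-0.20) were not called. Under median centring the called probes of Steap1 (0.07) and Urod (0.25) changed sign and that of Fech was -0.03. The called Nfe2l2 probe was then -0.76, and the others, in the order above, were 0.46, 0.58 and -0.30. Haptoglobin (Hp), which binds free haemoglobin, was the probe called higher, at 1.11 ± 0.14 (SD, n = 3). After loess, mitochondrial iron genes held no called probe among 9, and neither did genes of iron uptake and regulation among 23. Among the latter the RNA-binding iron chaperone Pcbp1 came closest, with 2 probes at 0.87 and 0.97. Median centring put them at 2.35 and 2.51, and called 6 of the 9 and 3 of the 23 probes higher. Under median centring 22 of the 79 probes were called higher and 1 lower, against 17.1% and 1.72% of all probes.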

How the data were processed

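RNA of EpH4-PR cells (Cy5) and a commercial mouse standard RNA (Cy3) were hybridised together on 3 Agilent arrays. The deposited scanner files hold spot and background intensity and a log10 ratio, made by the authors' service laboratory with Agilent Feature Extraction; a genome build is not given in the sources used here. A further deposited table holds the authors' own comparison of 2 unnamed sides (log ratio, fold change, p-value and pooled intensities of selected probes) and was not used; 0 columns of per-sample values were left unmapped.

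Mean spot intensities were background-corrected with normexp (offset 50) and normalized by loess within each array in limma 3.58.1 (R 4.3.3), with control spots at weight 0 in loess and outlier spots left out. Spots of a probe were averaged, and 41171 of 41174 probes were tested for a log2 ratio different from 0 with lmFit and eBayes and Benjamini-Hochberg adjustment over all of them. The fit was tested on simulated data with 200 of 41174 probes changed by 1.5 log2 units, of which 89% were recovered with 0 false calls. These ratios were simulated as already normalized, so the test does not cover background correction, a dye effect or the choice of normalization. Unchanged probes were drawn around 0 with their observed SD, whose median was 0.09. Few of them could reach the limit of 1 log2 unit, so the 0 false calls say little about the false call rate. Different probes of a gene were kept apart. Array ratios correlated at r = 0.923 to 0.952 across probes, and the number of arrays limits the precision.

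Values on every array are given for each called member above background in at least 1 channel on all arrays and for a set of genes named whatever their values (Mt1, Mt2, Mtf1, Slc30a1, Slc39a1, Slc31a1, Atp7a, Tfrc, Trf, Slc11a2, Slc40a1, Fth1, Ftl1, Aco1, Ireb2, Hmox1 and Hmox2); of the wider list, up to 5 called probes on each side are named. Marker probes for erythroid cells (5), liver (5) and brain (16) held 0 called probes after loess. Under median centring 1 brain probe was called higher. Slc39a4 and other members are given by mean or range, with arrays shown for some after their values were seen. The members and lists were chosen with earlier results of these data known. Alternatives were background correction (offset 0, or none), the scanner's log ratio, median centring, scaling between arrays, spot medians, outlier spots, dim probes, an intensity trend, current symbols, means over probes, the methods' t-test and leaving out each array.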

Additional observations from a re-analysis of the deposited data

How the results depend on the processing

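Scaling between arrays, keeping outlier spots and an intensity trend changed neither the number of members called nor any sign. Median centring changed most: 14 members were called higher and 1 lower, with a median of 0.32, and 22 probes of the wider list were called higher and 1 lower. With normexp offset 0, 3 members were called higher, the median was -0.13 and 4 probes of the wider list were called higher. The scanner's log ratio gave 3 members and 6 probes of the wider list called higher. Without background correction the median was -0.052, and 0 probes of the wider list were called higher and 3 lower. With the methods' t-test and Benjamini-Hochberg adjustment in place of limma, 19 member probes lost an adjusted p under 0.05 and 1 gained it. The median was -0.10 with dim probes left out and, in a choice made after seeing the data, -0.30 over the members brighter than the negative controls. The cause of these differences was not tested.

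Under median centring the ratio became positive for Atp7b (0.76), Cp (1.03), Slc31a1 (0.32 and 0.96), Slc31a2 (0.045), Hmox1 (0.67), Fth1 (0.50), Ireb2 (0.73), Hfe (0.23), Slc11a2 (0.24), Trf (0.65), the second Mt1 probe (0.22), Mt4 (1.07), Mtf1 (0.090), Slc30a4 (0.31), Slc30a5 (1.20 and 0.88), Slc30a9 (0.64), Slc39a1 (0.49), Slc39a13 (0.65), Slc39a14 (0.60), Slc39a3 (0.019), Slc39a6 (0.54), Slc39a7 (1.11) and Slc39a9 (0.14). It became negative for Hamp (-0.14) and for other probes of Hfe (-0.17), Mtf1 (-0.15), Slc30a7 (-0.21), Slc30a8 (-0.13) and Slc30a9 (-0.15). Probes near 0 changed sign without background correction (Heph 0.0067, Hfe -0.0021, Mt4 0.0021, Slc30a5 0.024 and Slc30a9 -0.0060), with spot medians (Hfe -0.0033, Mt4 0.011 and Slc30a9 -0.0063) and with the scanner's log ratio (Heph 0.29 and Hfe 0.22).

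Leaving out each array in turn gave 5 to 7 members called lower and 1 called higher, 1 to 2 probes of the wider list called higher and 4 to 5 lower, and a median of -0.09 to -0.07. Slc30a1 was no longer called without replicate 2, and Slc39a4 was called lower without replicate 3. Signs changed for probes of Heph (-0.076 to 0.013), Slc30a5 (-0.033 to 0.019), Slc30a7 (-8.8e-05 to 0.11) and Slc30a9 (-0.075 to 0.11). No paired analysis was possible because the arrays form 1 group, with the same reference RNA in the other channel. Spots near the negative controls limit what the 34 dimmer members can show.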
